A study of Mus musculus with 8 samples.

Results

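The PAR bZIP factors Dbp, Tef and Hlf are transcription factors through which the circadian clock drives rhythmic expression of other genes. Here, their mRNA was followed in the colon of bone marrow chimeric mice together with that of Nfil3, which represses from the same DNA sites, and of Sphk2, a gene that overlaps the end of Dbp on the opposite strand. These 5 genes, out of 26008 in the table of normalized counts, were found by their gene symbols, and they had been selected on the difference between the genotypes in these same libraries. Their values in that comparison are therefore a description without a test. All 5 genes passed the filter for the tests across genes, a mean of 10 or more normalized counts.

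The chimeras were male C57BL/6JRj wild-type recipients aged 7 weeks, lethally irradiated and engrafted with bone marrow of male donors aged 9 to 11 weeks. The donors were either proenkephalin-knockout mice (Penk-/-, giving penk-/- chimeras) or wild-type mice (Penk+/+, giving penk+/+ chimeras), and a colonic biopsy of 4 chimeras per genotype was sequenced 18 weeks after engraftment, with 1 library per mouse. The deletion thus concerned the cells descending from the graft, whereas the epithelium, the muscle and the neurons of the colon, as well as remaining hematopoietic cells of the recipient, kept an intact gene. All the mice had been irradiated. The hour at which each mouse was sampled is not given in the sources used here.

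The libraries held an estimated 33.1 M to 50.7 M reads counted in genes. Penk itself ranged from 453 to 616 normalized counts in penk-/- and from 473 to 636 in penk+/+ chimeras, which overlap, in a tissue where the host cells retain the gene. The epithelial marker list summed to 453104 to 618356 normalized counts in penk-/- and to 563626 to 670009 in penk+/+ chimeras, and 7 of its 8 genes had a lower mean in penk-/- chimeras. The smooth muscle, enteric neuron and leukocyte lists were all detected and overlapped between the genotypes. The libraries of penk-/- mouse 3 and penk+/+ mouse 4 stood apart, as 3 markers of the male accessory glands (Pbsn, Tgm4 and Msmb) summed there to 209863 and 217825 normalized counts, against 54.2 to 27526 in the other libraries. The fold changes and correlations of the members are given with and without these 2 libraries. In a bulk biopsy, fewer cells of a type and less RNA per cell cannot be told apart.

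The clock is a loop of transcription. CLOCK and BMAL1 bind E-boxes and activate, among others, the Per and Cry genes, which repress them, and Nr1d1 and Nr1d2, which repress Bmal1 and Nfil3. Dbp, Tef and Hlf are E-box-driven outputs of this loop. Their proteins bind D-boxes as dimers and activate genes of detoxification and transport in the liver, the kidney and the intestine, while NFIL3 occupies the same sites as a repressor and is also required for the development of innate lymphoid cells. Expression of Dbp is among the most strongly rhythmic of all genes in peripheral tissues, and Nfil3 usually peaks in the opposite phase.

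Matches to the E-box and the D-box were read from the GRCm39 assembly around the start of the canonical transcript of each gene. They show which members carry these letters near their start. Other sites that may connect a gene to the clock were not searched. The letters searched on both strands were CACGTG for the E-box, and TTATGTAA (TTACATAA on the other strand) or TTACGTAA for the D-box. Of these, the E-box and the D-box TTACGTAA share the letters ACGT. Windows covered the 500 bases before and the 5000 bases after the start. Of 21768 protein-coding genes, 9.68% had this E-box before and 45.5% after the start, and 2.07% had one of these D-boxes before and 19.2% after it. In the following lines, each sequence is on the strand of its gene, 5′ to 3′, with the motif in capitals.

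Dbp, intron 2, chr7:45357124-45357153 (plus strand): acattccctcgcCACGTGagtccgccttcc
Dbp, intron 2, chr7:45357237-45357266 (plus strand): agctgtaggccaCACGTGatgcggccctga
Tef, upstream, chr15:81695132-81695161 (plus strand): gcgccgcagccgCACGTGcagagcctcgtg
Tef, upstream, chr15:81695243-81695272 (plus strand): ctgctgccgctcCACGTGaccctcggggct
Tef, upstream, chr15:81695465-81695494 (plus strand): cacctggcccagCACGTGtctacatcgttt
Hlf, intron 1, chr11:90280452-90280481 (minus strand): gctgagcaggctCACGTGtaaccgcgtgca
Nfil3, upstream, chr13:53135758-53135787 (minus strand): ccgccacctctcCACGTGgtcggggacaca
Nfil3, intron 1, chr13:53134730-53134759 (minus strand): cggggcatgcaTTACATAAacttttgctgc
Nfil3, intron 1, chr13:53133814-53133843 (minus strand): gaaatgtgaggTTATGTAActgccgaattt

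The 2 E-boxes of Dbp started 2625 and 2738 bases into the gene, and Dbp had none upstream. Tef held 3 E-boxes upstream, at -471, -360 and -138, and none in the window after its start. Hlf held 1 E-box, in its first intron and starting 1293 bases after the start. Nfil3 had an E-box at -408 and a further one in its first intron, and it was the only member with a D-box in these windows, with 4 in its first intron starting 620, 1536, 2321 and 4953 bases after the start. Sphk2 had 2 E-boxes in a coding exon and no D-box. Upstream is relative to the canonical transcript, and the annotated genes Tef and Nfil3 reach farther and contain their upstream sites. A match describes the letters in the window and not the binding of a factor.

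Dbp was the member that differed most between the genotypes. Its normalized counts were 101, 73.3, 139 and 139 in penk-/- mice 1 to 4, and 215, 250.1, 284 and 424 in penk+/+ mice 1 to 4. All 4 penk-/- chimeras were below all 4 penk+/+ chimeras, with means of 113 ± 32.0 and 293 ± 91.3 (SD, n = 4 each), that is, 2.58-fold higher in penk+/+ chimeras on the log2(value + 1) scale (log2 fold change -1.37, standard error 0.26). The spread between mice was 28.3% of the mean in penk-/- and 31.1% in penk+/+ chimeras, against a counting error of 12.5% at the lowest depth, an estimated 64 reads. Without the 2 libraries rich in accessory gland transcripts the log2 fold change was -1.29, and it lay between -1.50 and -1.18 when each mouse was left out in turn.

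Tef, the activator with the highest level, had 1713, 1425, 1966 and 2055 normalized counts in penk-/- mice 1 to 4, and 1955, 1963, 2074 and 3705 in penk+/+ mice 1 to 4. Of these, 3 penk+/+ mice lay within or just above the range of the penk-/- mice, and mouse 4 stood far above all others. The means were 1789.8 ± 283 and 2424 ± 856 (SD, n = 4 each). Their log2 fold change was -0.39 (standard error 0.21) and became -0.17 without penk+/+ mouse 4 and -0.22 without both libraries rich in accessory gland transcripts.

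Hlf, the third activator, had 161, 187, 314 and 211 normalized counts in penk-/- mice 1 to 4, and 172, 306, 273 and 337 in penk+/+ mice 1 to 4. The genotypes overlapped over nearly their whole range. The highest value of each genotype was in the library with most accessory gland transcripts, penk-/- mouse 3 and penk+/+ mouse 4. The log2 fold change was -0.32 (standard error 0.25, means 218 ± 67.2 and 272 ± 71.7, SD, n = 4 each) and -0.39 without these 2 libraries. Single mice moved it in either direction, to -0.19 without penk-/- mouse 1, -0.20 without penk+/+ mouse 4, -0.51 without penk-/- mouse 3 and -0.53 without penk+/+ mouse 1.

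Nfil3, the repressor, had 169.6, 230.1, 299 and 188 normalized counts in penk-/- mice 1 to 4, and 208, 153, 217 and 165 in penk+/+ mice 1 to 4. It was the only member with a higher mean in penk-/- chimeras (222 ± 57.3 against 186 ± 31.4, SD, n = 4 each), and the genotypes overlapped, with only mice 2 and 3 of the penk-/- chimeras above all penk+/+ chimeras. The log2 fold change was 0.24 (standard error 0.19). It was 0.08 without penk-/- mouse 3, the highest of the 8 mice, 0.15 without penk+/+ mouse 2, the lowest, and 0.03 without the 2 libraries rich in accessory gland transcripts, whose part in the value of Nfil3 was not tested.

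**Figure D1:**
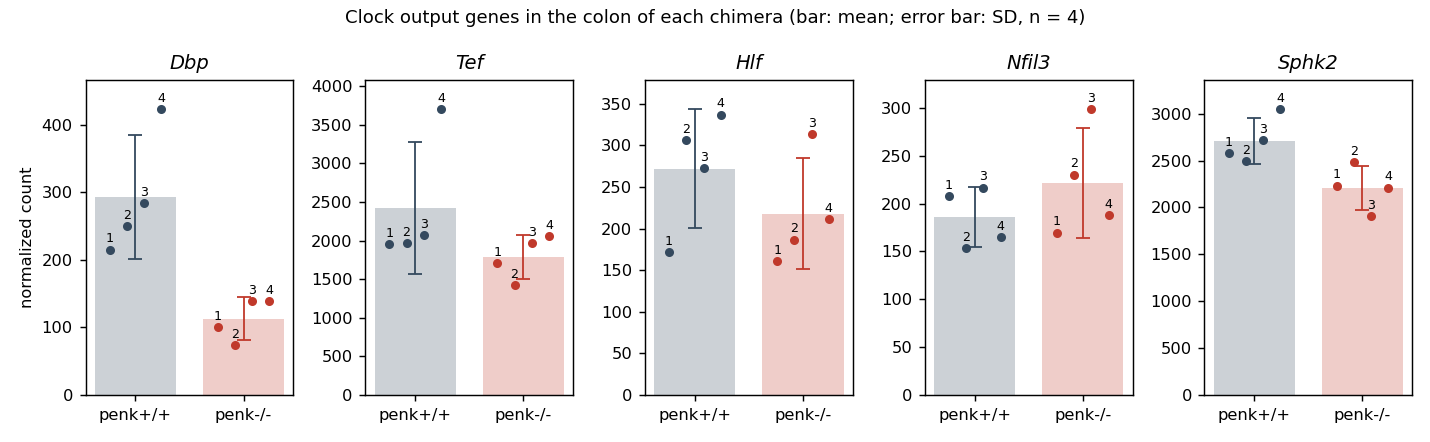
Normalized counts (y axis) of Dbp, Tef, Hlf, Nfil3 and Sphk2 in each penk+/+ (dark points) and penk-/- (red points) chimera, numbered by mouse, with the mean as a bar from 0 and the SD as an error bar (n = 4 each). The genotypes are apart for Dbp (73.3 to 139 against 215 to 424) and just apart for Sphk2, and they overlap for Tef, Hlf and Nfil3.

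Sphk2 encodes sphingosine kinase 2, an enzyme that makes the lipid mediator sphingosine 1-phosphate. It had 2233, 2484, 1909 and 2212 normalized counts in penk-/- mice 1 to 4, and 2584, 2492, 2719 and 3049.9 in penk+/+ mice 1 to 4. The genotypes did not overlap, but the highest penk-/- mouse and the lowest penk+/+ mouse were 2484 and 2492, nearly equal. The log2 fold change was -0.30 (standard error 0.09, means 2209 ± 236 and 2711 ± 244, SD, n = 4 each) and -0.17 without the 2 libraries rich in accessory gland transcripts.

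Against the background of all genes, 2 of the 5 members, Dbp and Sphk2, had penk-/- values entirely below the penk+/+ values, whereas 2.74% of the 19127 genes tested did so and 2.89% were entirely above. Since the members were selected on this contrast, nothing is read from that share. With TMM scaling or quantile normalization, Dbp and Sphk2 were again without overlap and Tef, Hlf and Nfil3 overlapped. After Benjamini-Hochberg adjustment of limma's p-values over the 19127 genes, 0 genes (0%) were below 0.05, the members included, and the lowest adjusted p was 0.132. At an unadjusted p below 0.05 there were 1842 genes, and 2938 with the replicate number as a block. The paper reported a few differentially expressed genes between these groups with DESeq2, a test on read counts that was not run here.

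Per kb of annotated exon, Sphk2 and Tef were the most abundant members, with 256 to 409 and 173 to 449 normalized counts per kb over the 8 mice. Sphk2 exceeded Tef in 7 of 8 mice, so that these neighbours did not separate. Dbp (21.1 to 122), Hlf (23.2 to 48.6) and Nfil3 (30.9 to 60.3) followed, and they too overlapped. The place of Dbp in this order differed by genotype, with 84.5 ± 26.3 normalized counts per kb in penk+/+ chimeras, where Hlf and Nfil3 had 39.3 ± 10.4 and 37.5 ± 6.34, and 32.6 ± 9.23 in penk-/- chimeras, where they had 31.5 ± 9.70 and 44.7 ± 11.6 (SD, n = 4 each).

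The balance of activators and repressor within a mouse was expressed as the difference of log2(value + 1) per kb between each activator and Nfil3. For Dbp it was -0.23, -1.12, -0.59 and 0.08 in penk-/- mice 1 to 4, and 0.56, 1.22, 0.90 and 1.87 in penk+/+ mice 1 to 4. Per kb, Dbp thus exceeded Nfil3 in all penk+/+ chimeras and was below it in 3 of 4 penk-/- chimeras. For Tef the difference was 1.89 to 2.71 in penk-/- and 2.49 to 3.75 in penk+/+ chimeras, and for Hlf it was -0.79 to -0.32 and -0.76 to 0.54. Both overlapped between the genotypes, so that among the activators the balance with Nfil3 differed between all mice of the 2 genotypes for Dbp alone. These differences contain the values on which the genes were selected.

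**Figure D2:**
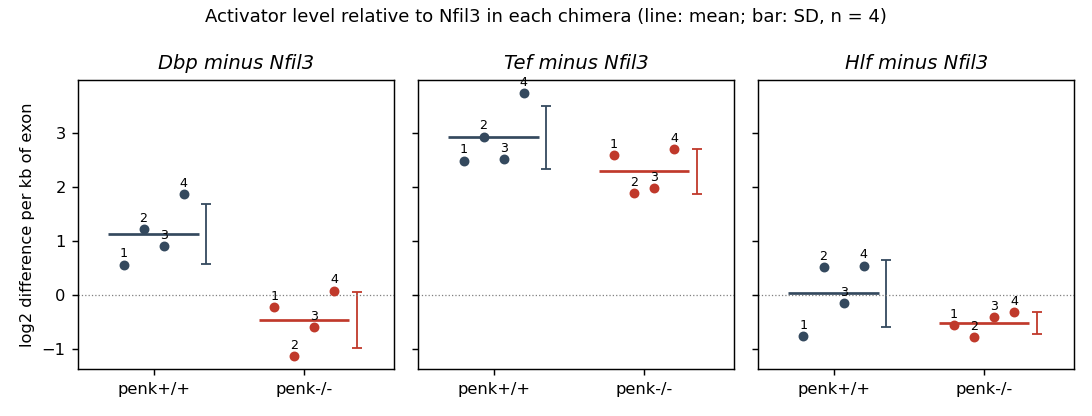
Difference in log2(normalized count + 1) per kb of exon (y axis) between Dbp, Tef or Hlf and Nfil3 in each chimera, numbered by mouse, with the mean as a line and the SD as a bar at the side (n = 4 each); 0 means equal levels per kb. For Dbp, the penk+/+ chimeras lie at 0.56 to 1.87 and the penk-/- chimeras at -1.12 to 0.08, while the genotypes overlap for Tef and Hlf.

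Whether the members varied together between mice of the same genotype was asked next, as this variation was not used to select them. The deviation of each mouse from the mean of its genotype, on the log2(value + 1) scale, was correlated over the 8 mice for the 10 pairs of members and for each member with Bmal1, the clock gene expected in opposite phase to Dbp. Dbp and Tef deviated together, with a Pearson r of 0.914 and a Spearman rho of 0.976. By an exact permutation test of the mice within each genotype, two-sided, p was 0.00174 for both, the smallest this test can give, and 0.026 after Benjamini-Hochberg adjustment over the 15 pairs. In either genotype the mouse with the lowest Dbp had the lowest Tef, and the mouse with the highest Dbp had the highest Tef. Some of these ranks rested on nearly equal values. Dbp was 138.8 and 139.2 in penk-/- mice 3 and 4, and Tef was 1955 and 1963 in penk+/+ mice 1 and 2.

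Pearson r of Dbp and Tef stayed high when mice were left out, but the adjusted test then had too few mice to pass. It was 0.922 without the 2 mice farthest from the median of Dbp (penk-/- mouse 2 and penk+/+ mouse 4), 0.906 to 0.968 when each mouse was left out, and 0.964 without the 2 libraries rich in accessory gland transcripts (exact permutation test, two-sided, p = 0.0556 over 6 mice). With 7 mice no adjusted p below 0.104 can be reached over the 15 pairs. With TMM scaling, r was 0.917 and the adjusted p of the exact permutation test 0.0521.

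The other pairs did not pass this test. Dbp and Hlf had r = 0.693 and rho = 0.619 (exact permutation p = 0.0972 and 0.135, adjusted 0.449 and 0.438). For Tef and Hlf, r was 0.542 and rho 0.548 (exact permutation p = 0.182 and 0.146, adjusted 0.547 and 0.438). Without the 2 libraries rich in accessory gland transcripts, r was 0.455 for Dbp and Hlf and 0.242 for Tef and Hlf. The repressor gene Nfil3 had an r of -0.0451 with Dbp, -0.166 with Tef and 0.228 with Hlf, with exact permutation p-values of 0.936, 0.658 and 0.606. Without these 2 libraries, r was -0.360, -0.334 and -0.302, so that the sign of Nfil3 and Hlf turned.

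Sphk2 had an r of -0.061 with its overlapping gene Dbp (rho = -0.0714, exact permutation p = 0.905 and 0.896), and of 0.247 with Tef, -0.221 with Hlf and -0.361 with Nfil3 (exact permutation p = 0.564, 0.625 and 0.457). These values rested on single mice. For Dbp and Sphk2, r was -0.677 without penk+/+ mouse 4, 0.483 without penk-/- mouse 2 and -0.561 without both libraries rich in accessory gland transcripts. For Tef and Sphk2 it turned to -0.672 without penk+/+ mouse 4 and to -0.646 without both libraries, and for Hlf and Sphk2 it was -0.598 without penk+/+ mouse 4, 0.375 without penk-/- mouse 3 and -0.0515 without both. For Nfil3 and Sphk2 it turned to 0.234 without penk-/- mouse 3 and to 0.860 without both libraries (exact permutation p = 0.0556 over 6 mice).

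Bmal1 had a negative r with Dbp (-0.514), Tef (-0.361), Hlf (-0.639), Nfil3 (-0.628) and Sphk2 (-0.0279), with exact permutation p-values of 0.255, 0.536, 0.120, 0.108 and 0.958 and none under 0.449 after adjustment. Without the 2 libraries rich in accessory gland transcripts, r was -0.334, -0.189, -0.433, -0.602 and -0.592. Over all 8 mice, Spearman rho of the pairs that include Nfil3, Bmal1 or Sphk2 lay between -0.714 (Hlf and Bmal1) and 0.286 (Hlf and Nfil3). For these pairs no exact permutation p was below 0.0833 and no adjusted p below 0.438.

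**Figure D3:**
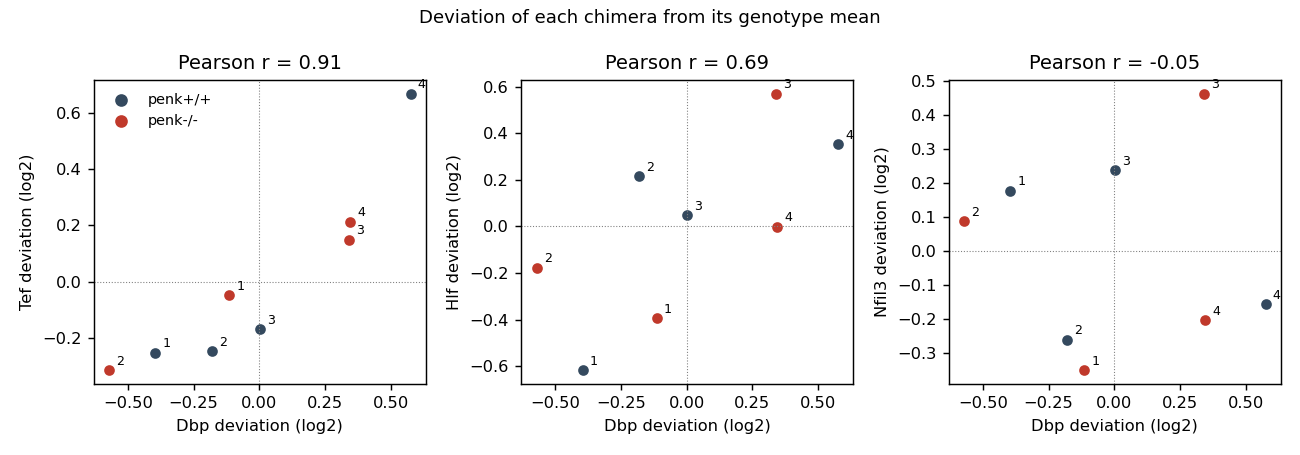
Deviation of Tef, Hlf and Nfil3 (y axes, log2) against the deviation of Dbp (x axis, log2), each from the mean of the genotype, in 4 penk+/+ (dark) and 4 penk-/- (red) chimeras numbered by mouse. The points rise together for Tef (r = 0.91), less closely for Hlf (r = 0.69), and show no slope for Nfil3 (r = -0.05).

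The shared variation left the ratio of both genes tight within a genotype. Per kb, Dbp amounted to 14.0%, 12.2%, 16.8% and 16.1% of Tef in penk-/- mice 1 to 4, and to 26.2%, 30.3%, 32.6% and 27.2% in penk+/+ mice 1 to 4. The means were 14.8% ± 2.08 and 29.1% ± 2.93 (SD, n = 4 each), and no penk-/- chimera came near a penk+/+ chimera. As the ratio contains Dbp, its difference between the genotypes is again a description.

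The position of Dbp and Sphk2 raises the question of shared reads. On GRCm39, Dbp lies on chromosome 7 from 45354512 to 45359627 on the plus strand and Sphk2 from 45358891 to 45367426 on the minus strand, so that both genes share 737 bases at their 3′ ends. Of these, 539 are exonic in both, 15.5% of the exons of Dbp and 7.24% of those of Sphk2. The libraries were stranded, but the strand setting of the counting is not given in the sources used here, and for reads from the shared stretch the genes cannot be told apart without it. In counts not divided by length, Dbp was 2.95% to 7.27% of Sphk2 in penk-/- and 8.33% to 13.9% in penk+/+ chimeras. The means of Sphk2 differed by 502 normalized counts between the genotypes and those of Dbp by 180.2, and Dbp had at most 424 in any mouse. The part of shared reads in the counts of either gene was not tested.

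The annotation holds 20 further genes within 100 kb, of which 17 were tested, and 7 of these had a higher and 10 a lower mean in penk-/- chimeras, with a median log2 fold change of -0.03. Sphk2 was the lowest of them at -0.30 and the only one without overlap of the genotypes. Car11, a carbonic anhydrase-related gene that ends just before Dbp begins, had a log2 fold change of -0.14 (standard error 0.19). Rpl18, a ribosomal protein gene that overlaps the other end of Sphk2, had 0.04 (standard error 0.06), and the fucosyltransferase gene Fut2 had 0.08 (standard error 0.13).

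**Figure D4:**
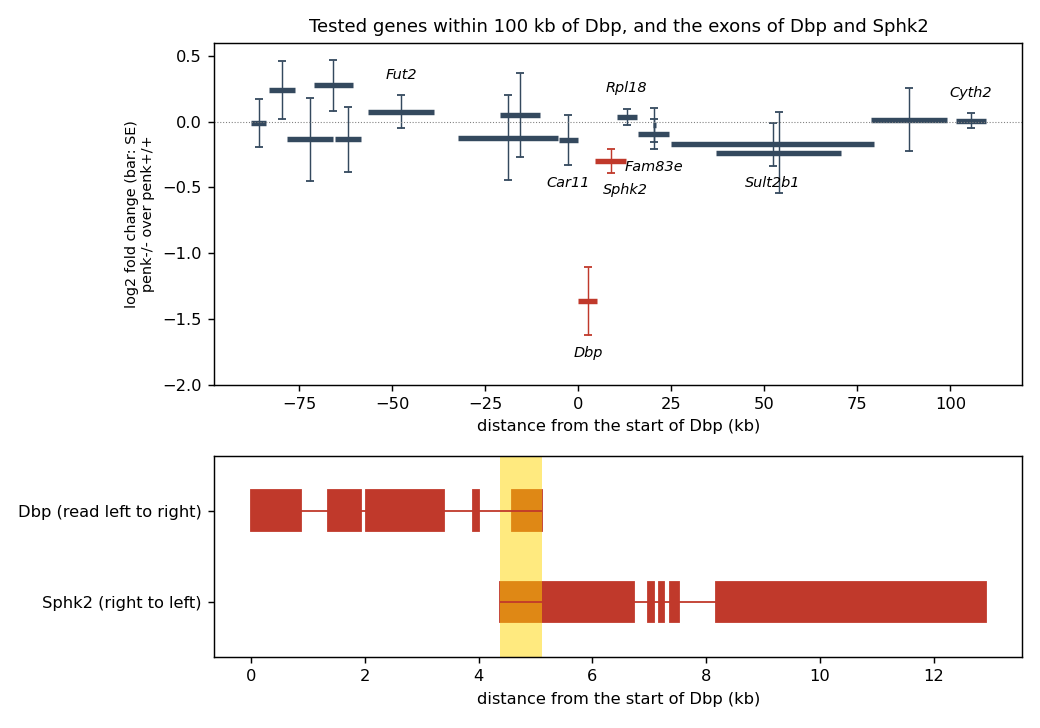
Upper panel, log2 fold change (penk-/- over penk+/+, y axis, vertical bars: standard error) of the genes tested within 100 kb of Dbp, each drawn as a horizontal bar over its span by distance from the start of Dbp in kb (x axis), with Dbp and Sphk2 in red. Lower panel, exons of Dbp and Sphk2 as boxes, with the 737 shared bases in yellow; Dbp lies at -1.37 and all other genes between -0.30 and 0.28.

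Among the further sphingosine 1-phosphate genes, 8 of the 10 tested (of 11 listed) had a higher and 2 a lower mean of log2(value + 1) in penk-/- chimeras. The median log2 fold change was 0.10 against 0.01 over all genes, and 0 passed the adjusted test. The receptor gene S1pr2 averaged 315 ± 52.7 in penk-/- and 244 ± 46.1 normalized counts in penk+/+ chimeras (log2 fold change 0.37), the receptor gene S1pr1 424 ± 114 and 351 ± 80.2 (0.25), and the phosphatase gene Sgpp1 2016 ± 385 and 1770.4 ± 475 (0.20; SD, n = 4 each). Sphk1, the paralog of Sphk2 and named here after its values were seen, had -0.05. No gene of this list had genotypes that did not overlap.

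Of the 10 genes driven through E-boxes and D-boxes, 4 had a higher and 6 a lower mean of log2(value + 1) in penk-/- chimeras. The median log2 fold change was -0.07, and 2 genes had penk-/- values entirely below the penk+/+ values, as 2.74% of all genes tested did. These were the nuclear receptor genes Nr1d1 and Nr1d2, which code for the repressors of the loop. The list was chosen with earlier results of these data known, so that nothing is read from this share. Nr1d1 had 912, 1916, 848 and 1742 normalized counts in penk-/- mice 1 to 4, and 3547, 3851, 4124 and 4311 in penk+/+ mice 1 to 4, a log2 fold change of -1.64 (standard error 0.25), larger than that of Dbp. Nr1d2 had 1816 to 2626 in penk-/- and 3269 to 4192 in penk+/+ chimeras (-0.82, standard error 0.12).

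The period genes, which share E-box control with Dbp, did not separate. Per1 averaged 1013 ± 378 in penk-/- and 1152 ± 248 normalized counts in penk+/+ chimeras (log2 fold change -0.24), Per3 had 1350.3 ± 144 and 1510.1 ± 237 (-0.15), and Per2 had 2266 ± 523 and 1733 ± 496 (0.40; SD, n = 4 each). Of these, Per2 and Per3 were the clock genes of this list with a D-box in the 500 bases before the start.

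Of the 4 genes followed that are controlled through RORE sites, the elements bound by NR1D1 and NR1D2, 2 had a higher and 2 a lower mean in penk-/- chimeras, with a median log2 fold change of 0.00 and no gene without overlap. Bmal1 had 3615 ± 473 and 3742 ± 631 normalized counts (log2 fold change -0.04, standard error 0.13), and Cry1, a repressor of CLOCK and BMAL1, had 1729.6 ± 398 and 1202 ± 207 (0.51, standard error 0.17; SD, n = 4 each). Nfil3, which is also controlled through RORE sites, had the 0.24 given above. None of these clock genes passed the adjusted test.

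The proteins act on target genes, of which a list of 15, known mainly from the liver, was followed. Of these, 11 were in the table and 10 were tested, and 7 had a lower and 3 a higher mean in penk-/- chimeras (48.9% of all genes tested had a lower mean), with a median log2 fold change of -0.27 (0.01 over all genes), and 0 passed the adjusted test. For 2, Slc15a1 and Abcc2, all penk-/- values were below all penk+/+ values, as for 2.74% of all genes tested. Nothing is read from this share either, as this list too was chosen with earlier results of these data known.

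Slc15a1 codes for the peptide transporter PEPT1 of the intestinal brush border. It had 10230.2, 9094, 7136 and 10617 normalized counts in penk-/- mice 1 to 4, and 16218, 13951, 14223 and 13428 in penk+/+ mice 1 to 4, a log2 fold change of -0.65 (standard error 0.12). Abcc2, which exports conjugated compounds into the lumen, had 137, 121, 185 and 165 in penk-/- mice 1 to 4, and 197, 204, 204 and 224 in penk+/+ mice 1 to 4 (-0.46, standard error 0.14). Beside these 2 epithelial genes, the 8 epithelial markers had a median log2 fold change of -0.16, with values from -0.24 (Vil1) to 0.28 (Cdx2); none was without overlap or passed the adjusted test, and their part in the result was not tested.

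Among the remaining targets, the xenobiotic receptor gene Nr1i3 averaged 37.9 ± 9.25 in penk-/- and 57.0 ± 10.7 normalized counts in penk+/+ chimeras (log2 fold change -0.59), and the cytochrome P450 gene Cyp3a13 had 3818 ± 915 and 5023 ± 822 (-0.41). The low-level Cyp2a5 had 9.48 ± 1.93 and 19.9 ± 8.87 (-0.91). Alas1, the gene of the first enzyme of heme synthesis, was the target with the largest difference in the other direction, 3679 ± 367 and 3267 ± 397 (0.17; SD, n = 4 each). None of the 15 listed genes had one of the D-boxes searched in the 500 bases before its start, and 5 had one in the 5000 bases after it, which says only that these letters are or are not in these windows.

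**Figure D5:**
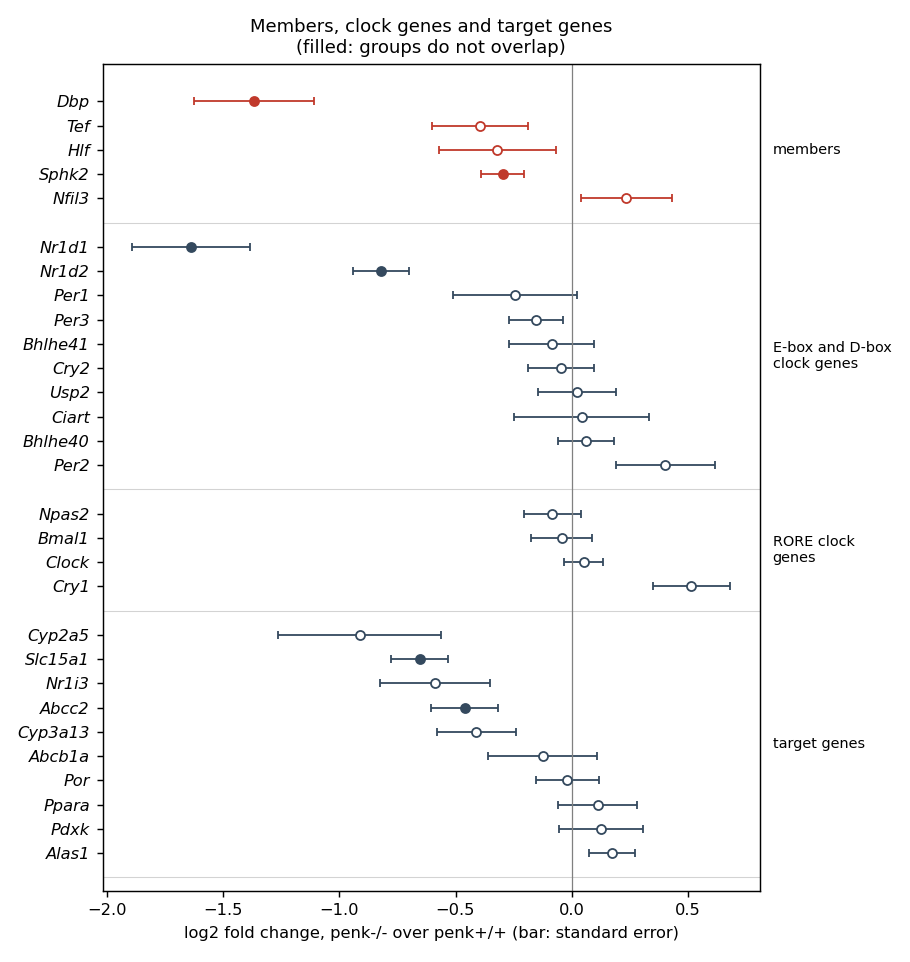
Log2 fold change (x axis, penk-/- over penk+/+, bars: standard error) of the 5 members (red) and of the clock and target genes tested (dark), grouped by list, with filled points for genes whose genotypes do not overlap. The filled points are Dbp, Sphk2, Nr1d1, Nr1d2, Slc15a1 and Abcc2, all to the left of 0.

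The bZIP relatives of the C/EBP family, which can bind related sites, had no common direction. Of the 5 tested (of 6 listed), 2 had a higher and 3 a lower mean in penk-/- chimeras, with a median log2 fold change of -0.01. Cebpd had the largest difference, averaging 519.8 ± 109 in penk-/- and 753 ± 291 normalized counts in penk+/+ chimeras (-0.47, standard error 0.28; SD, n = 4 each).

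Since NFIL3 acts in the development of innate lymphoid cells, genes of these cells were listed as well. Of 10 genes, 6 were tested, 3 higher and 3 lower in penk-/- chimeras, with a median of 0.03, no gene without overlap and 0 past the adjusted test. Klrb1b, a natural killer receptor gene, averaged 32.8 ± 5.79 in penk-/- and 24.9 ± 9.23 normalized counts in penk+/+ chimeras (log2 fold change 0.45), and Zbtb16, a transcription factor gene of innate-like lymphocytes, 491 ± 169 and 637 ± 185 (-0.39; SD, n = 4 each). The 4 genes not tested, Ncr1, Klrb1c, Eomes and Tbx21, named after their values were seen, had at most 8.72 normalized counts in any library, so that a difference there was not detectable at this depth. Gata3, the factor of type 2 cells, had 727 and 689 in the 2 libraries rich in accessory gland transcripts and 5.05 to 94.6 in the 6 others. Zbtb16 also had its highest value of each genotype there, 744 in penk-/- mouse 3 and 911 in penk+/+ mouse 4. The other mice had 404 to 409 in penk-/- and 526 to 578 in penk+/+ chimeras. These are apart, but fewer mice make separation easier, and the part of the accessory gland transcripts was not tested.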

How the data were processed

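Stranded poly-A libraries of colonic biopsies (4 penk-/- and 4 penk+/+ chimeras) were sequenced in paired ends. Per the submitters' processing notes, the authors aligned and quantified reads with STAR 2.7.8a on GRCm39 and used DESeq2 1.30.0. The deposited values are a signal: read counts per gene divided by a size factor per library, hence neither raw counts nor log values; 100% were whole multiples of a step (within 0.01 reads). Groups come from the labels, and 25776 of 26008 genes were named from GENCODE M39 (GRCm39). Genotypes were compared with limma 3.58.1 (R 4.3.3, trend, two-sided, Benjamini-Hochberg) on log2(value + 1) for 19127 genes with a mean of at least 10. P-values set differences and correlations against the variation between these mice. Correlations used exact permutation within genotypes (numpy 2.4.6, scipy 1.17.1). Genes, lists and tests were chosen with earlier results of these data known. Named genes are the members, up to 6 per list, neighbours within 100 kb of Dbp, and the genes most like a member (mean of at least 50). Tests were checked on simulated data. Count-based tests were not run. A gene first listed is not reported here.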

Additional observations from a re-analysis of the deposited data

Results flagged for a closer look

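In 3 of the 58 groups of 4 mice examined for the members, the clock genes and the target genes, a single mouse lay far from the other 3 by Dixon's criterion at the 95% level, where 2.9 are expected, since chance gives 1 in 20. Tef was 3705 normalized counts in penk+/+ mouse 4, with 2074 in the next mouse of its genotype. Usp2, a clock-controlled deubiquitinase gene, was 852 in the same mouse, with 565 in the next. Ppara, a nuclear receptor gene of lipid metabolism, was 384 in penk-/- mouse 1, with 281 in the next. Penk+/+ mouse 4 is one of the 2 libraries rich in accessory gland transcripts, and the part of these in the values of Tef and Usp2 was not tested.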

How the results depend on the processing

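The log2 fold changes of the 5 members kept their sign under the 17 alternatives to the genotype fit. Among these, the other filters, the fit without trend and the replicate block cannot change a fold change. The ranges were -1.50 to -1.18 for Dbp, -0.48 to -0.17 for Tef, -0.53 to -0.19 for Hlf, 0.03 to 0.35 for Nfil3 and -0.36 to -0.17 for Sphk2. These moves were smaller than the spread between mice, but Nfil3 fell from 0.24 to as low as 0.03 and Tef from -0.39 to -0.17. Genes with an adjusted p below 0.05 numbered 1 with quantile normalization (Scnn1g) and 0 to 6 when each mouse was left out (6 without penk-/- mouse 1), none of them a member. With the replicate number as a block, 2938 genes had an unadjusted p below 0.05 (1842 without it, 1383 to 2222 when a mouse was left out). Of these, 1 passed adjustment (Duox2, which like Scnn1g is named after its values were seen). The deviations of mice of the same number correlated at 0.145, -0.0444, -0.321 and -0.162, and those of mice of different numbers at -0.371 to 0.561. These few correlations cannot decide whether the numbers pair the mice. The block left the fold changes as they were. TMM scaling of the genotype fit was added after the data were seen and gave 0 genes. Genes without overlap of the genotypes numbered 1077, 912 to 1289 with other filters and scalings, 1497 to 2302 when a mouse was left out, and 2926 without both libraries rich in accessory gland transcripts; fewer mice make separation easier. The number of correlated pairs was 1, and 0 with TMM scaling, 0 without those 2 libraries and 0 to 0 when a mouse was left out, where the smallest possible adjusted p is 0.104. The planned edgeR, DESeq2 and voom fits were not run: they depended on recovering whole reads in every library. In penk-/- mouse 1 the step, 1.01, was judged too near 1 to accept this. The read numbers given here are values divided by the step of each library and are therefore estimates. With 4 mice per genotype and an estimated 64 to 494 reads of Dbp per library, the spread between mice limits the precision more than depth.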

Other observations

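The genes whose deviations between mice of the same genotype were most like those of each member were looked up among 14864 genes with a mean of at least 50 normalized counts. For Dbp the 5 highest Pearson r over the 8 libraries belonged to Clic3 (0.983), Adprs (0.977), Cux2 (0.942), Polh (0.939) and Lmtk3 (0.938), and the lowest to Pmvk (-0.976), Reg4 (-0.964) and Rfesd (-0.962). Lmtk3 lies within 100 kb of Dbp, with a log2 fold change of 0.02 between the genotypes. Tef ranked 19th for Dbp, ahead of the clock genes looked up after these values were seen. Abcc2 followed at rank 79 (r = 0.853), Ciart, a clock repressor gene, at 284 (0.767), Usp2 at 582 (0.694) and Hlf at 588 (0.693). Nr1d1 had an r of -0.163, and the other clock genes looked up lay between -0.793 (Npas2) and 0.628 (Nr1d2).

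For Tef the highest r belonged to Vps26b (0.970), Chd5 (0.959), Nfe2l3 (0.955), Gas2 (0.952) and Slc31a2 (0.951), and the lowest to Ddx1 (-0.989), Recql (-0.978) and Slbp (-0.966). Ciart (0.880), Usp2 (0.878) and Per3 (0.787) stood at ranks 82, 87 and 333. The other clock genes looked up lay between -0.602 (Npas2) and 0.574 (Per2), with Nr1d1 at -0.0318. For Hlf the highest belonged to Gid4 (0.993), Ctf1 (0.992), Sfrp5 (0.987), Kctd12b (0.984) and Wdr18 (0.984), and the lowest to Cpd (-0.996), Ptpn18 (-0.991) and Cpq (-0.991). For Nfil3 the highest belonged to Dzank1 (0.984), Zfp882 (0.983), Fam131b (0.976), Hspb1 (0.955) and Arhgef12 (0.953), and the lowest to B4galt7 (-0.985), Baiap3 (-0.962) and Senp7 (-0.958). The 4 sets of 5 genes had no gene in common. With 8 libraries and this number of genes, values of this size are a description and were not tested.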
